A study of Zea mays with 18 samples.

Results

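The comparison described here is between aleurone of r1-m3 and aleurone of R1-g maize kernels, across all annotated features of the genome. Its members are the 6 libraries titled as r1-m3 or R1-g aleurone, of 18 libraries in the series, with 3 libraries in each group. All plants were of the inbred line W22, grown in the field and self-pollinated, and the endosperm was taken 19 days after pollination. The tested libraries carry the allele r1-m3, and the libraries they are set against carry R1-g, which the series gives as the wild type. The labels do not describe the lesion of r1-m3 or the pigmentation of the kernels. Libraries of another allele, R1-sc, and of the starchy endosperm of all 3 genotypes share the line, age and protocol, and they serve here as context. Both compartments were cut out by laser microdissection, 5 ng of RNA was amplified to cDNA, and about 400 ng of cDNA went into each paired-end library.

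The aleurone is the outermost layer of the endosperm, and it surrounds the starchy endosperm, the storage tissue that fills most of the maize kernel. R1 encodes a basic helix-loop-helix transcription factor that acts with a MYB partner to switch on the genes of anthocyanin synthesis, and alleles of the locus differ in which tissues become pigmented. Mitochondrial and plastid genes, also described below, are transcribed inside the organelles by other polymerases.

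Levels are CPM (read counts per mega-count, M) after TMM scaling, a factor per library that evens out differences in RNA composition. A feature was called where its Benjamini-Hochberg adjusted p in edgeR's quasi-likelihood test was under 0.05. Feature totals of the 6 libraries ranged from 14.3 to 20.4 M. Multiply aligned reads, which the counting left out, made up 42.2% to 50.9% of all reads tabulated. The series calls its libraries biological replicates but does not say that they come from separate plants, so p-values measure only the spread between these samples. The cDNA was amplified and its reads carry no molecular identifiers, so a floor of 3 counts covers counting error only. Neither the tables nor the reference pair any nuclear gene ID with a name or role: the level of r1 itself is not given here, and lists of anthocyanin, zein, starch and cell type marker genes had no matched member.

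Replicate 3 of r1-m3 aleurone stood apart from every other library in how it related to its partners. Of the 7585 features that averaged at least 10 CPM in r1-m3 aleurone, its level lay between those of replicates 1 and 2 in 88.1%. In the 15 libraries of the other groups this share ranged from 22.4% to 39.6%. On log2 CPM across features it correlated at 0.871 with replicate 1 and at 0.892 with replicate 2, while the correlation between replicates 1 and 2 was 0.653. The 3 R1-g aleurone libraries correlated at 0.596 to 0.613 among themselves. Its counts were best described by 0.577 times those of replicate 1 plus 0.767 times those of replicate 2. Correlations of replicates 1 and 2 with the R1-g aleurone libraries were 0.601 to 0.631, about as high as those within either genotype. Counts of calls and the named nuclear features are therefore also given without r1-m3 replicate 3, and means of r1-m3 aleurone are over replicates 1 and 2. Log2 fold changes and their SE are from the fit with replicate 3 unless stated otherwise.

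**Figure D1:**
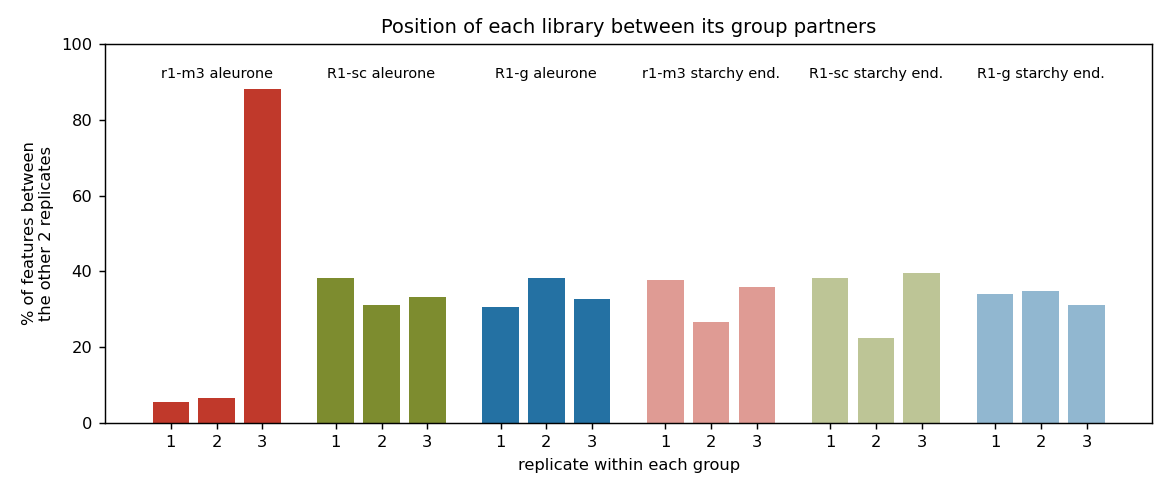
Percentage of features (vertical axis) whose level in a library lay between those of the other 2 libraries of its group, for each replicate (horizontal axis) of the 6 groups of genotype and compartment, over features that averaged at least 10 CPM in the group. r1-m3 aleurone replicate 3 reached 88.1%, and the 15 libraries of the other groups lay between 22.4% and 39.6%.

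Few features separated the genotypes in the aleurone. Of 18028 features tested of 46430 listed, 56 were called (0.311%), of which 46 were higher (0.255%) and 10 lower (0.0555%) in r1-m3. All 56 were nuclear gene models, which made up 17676 of the features tested. The median log2 fold change over all features tested was 0.0, and 2372 features had an unadjusted p under 0.05, of which 1510 were higher and 862 lower in r1-m3. Without r1-m3 replicate 3, 38 of 19111 features were called (0.199%), 34 higher (0.178%) and 4 lower (0.0209%), and each of the 38 was among the 56. With the 6 aleurone libraries alone in the fit, in place of all 18, edgeR called 0 features, with 1505 at an unadjusted p under 0.05 and a smallest adjusted p of 0.231. DESeq2 called 1105 features (6.13%), 671 higher (3.72%) and 434 lower (2.41%), and all 56 were among them.

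The 3 libraries of each group did not overlap in 43 of the 46 higher and 9 of the 10 lower features, against 19.2% of all features tested. These features were called by their difference between the same 6 libraries, so the separation is not independent of that choice. Replicate 3 of r1-m3, like a mixture of its partners, adds no independent value to it. Leaving out each of the 6 libraries in turn, 21 of the higher and 4 of the lower features were called every time. The features named below from here on include the 2 in each direction with the largest change that the naming rule took, and others chosen after their values were seen.

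Of the lower features, 4 were found in aleurone and hardly at all in starchy endosperm. Each had at most 1 CPM in all 9 starchy endosperm libraries, as did 13.9% of the features tested, and each was at or near 0 in r1-m3 aleurone while being expressed in aleurone of both R1 alleles. These 4 were the only members of a list of 1324 aleurone features, chosen in R1-sc libraries alone (a mean of at least 10 CPM in aleurone and at most 1 CPM in each starchy endosperm library), to be called, all of them lower (0.302%). Over all features tested 0.311% were called, so the list was called at about the overall rate. The share called lower over all features was 0.0555%, and that called higher was 0.255%, against 0 on the list. The list as a whole had a median log2 fold change of -0.06 (-0.04 without r1-m3 replicate 3), beside 0.0 over all features tested.

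Zm00001d014914 was at 0, 0 and 0 CPM in r1-m3 aleurone, against 115, 85.2 and 22.9 CPM in R1-g aleurone. All 3 r1-m3 libraries lay below every R1-g library, and R1-g replicate 3 was the lowest of its group. The level was at least 1136-fold lower in r1-m3, counting 3 reads over replicates 1 and 2 as the floor (edgeR quasi-likelihood test, Benjamini-Hochberg adjusted p = 3.13e-05; 0.000356 without r1-m3 replicate 3). In R1-sc aleurone it was at 357, 391 and 332 CPM, and all 9 starchy endosperm libraries together held 2 counts.

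Zm00001d034925 had the same shape. It was at 0, 0 and 0 CPM in r1-m3 aleurone, against 84.1, 75.1 and 24.5 CPM in R1-g aleurone, again with no overlap and with R1-g replicate 3 lowest. The level was at least 935-fold lower in r1-m3 (edgeR adjusted p = 0.00014; 0.00143 without r1-m3 replicate 3). R1-sc aleurone held 376, 352 and 57.5 CPM, a wider spread than for Zm00001d014914. These 2 were the only features tested with 0 counts in all r1-m3 and at least 10 CPM in every R1-g aleurone library. In the other direction 12 features had 0 counts in all R1-g and at least 10 CPM in every r1-m3 aleurone library, of which 1, Zm00001d032508, was called and the other 11 had adjusted p between 0.0667 and 0.253.

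Zm00001d052673 was detected in some r1-m3 libraries. It had 1.15, 0 and 0.395 CPM in r1-m3 aleurone, against 40.7, 199 and 56.2 CPM in R1-g aleurone. The groups did not overlap, although the R1-g libraries spread widely, with replicate 2 the highest. Its mean was 0.575 ± 0.813 CPM in r1-m3 (SD, n = 2) and 98.7 ± 87.4 CPM in R1-g (SD, n = 3). The log2 fold change with r1-m3 replicate 3 was -7.56 ± 1.27 (SE, adjusted p in edgeR 0.00485), and without it -7.39 ± 1.56 (adjusted p in edgeR 0.0436). R1-sc aleurone held 355, 469 and 210.0 CPM.

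Zm00001d044122 was at 0, 0 and 0 CPM in r1-m3 aleurone, against 31.6, 40.3 and 0.842 CPM in R1-g aleurone, and at 628, 473 and 132 CPM in R1-sc aleurone. R1-g replicate 3 lay just above the r1-m3 libraries, far from its own partners. The level was at least 370.4-fold lower in r1-m3 (edgeR adjusted p = 0.00653), but the call was lost without r1-m3 replicate 3 (adjusted p = 0.086), replicate 1 (0.0574) or replicate 2 (0.0514), and without R1-g replicate 1 (0.0764). In all 4 of these features every R1-sc aleurone library lay above all r1-m3 libraries. The 4 were called for a low r1-m3 level, so a higher R1-sc level is not independent of that choice. All 4 were also called with the 9 aleurone libraries alone in the fit, where 8 features were called in all (0.0504%). In bulk samples such as these, fewer cells of a type and less RNA per cell cannot be told apart.

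**Figure D2:**
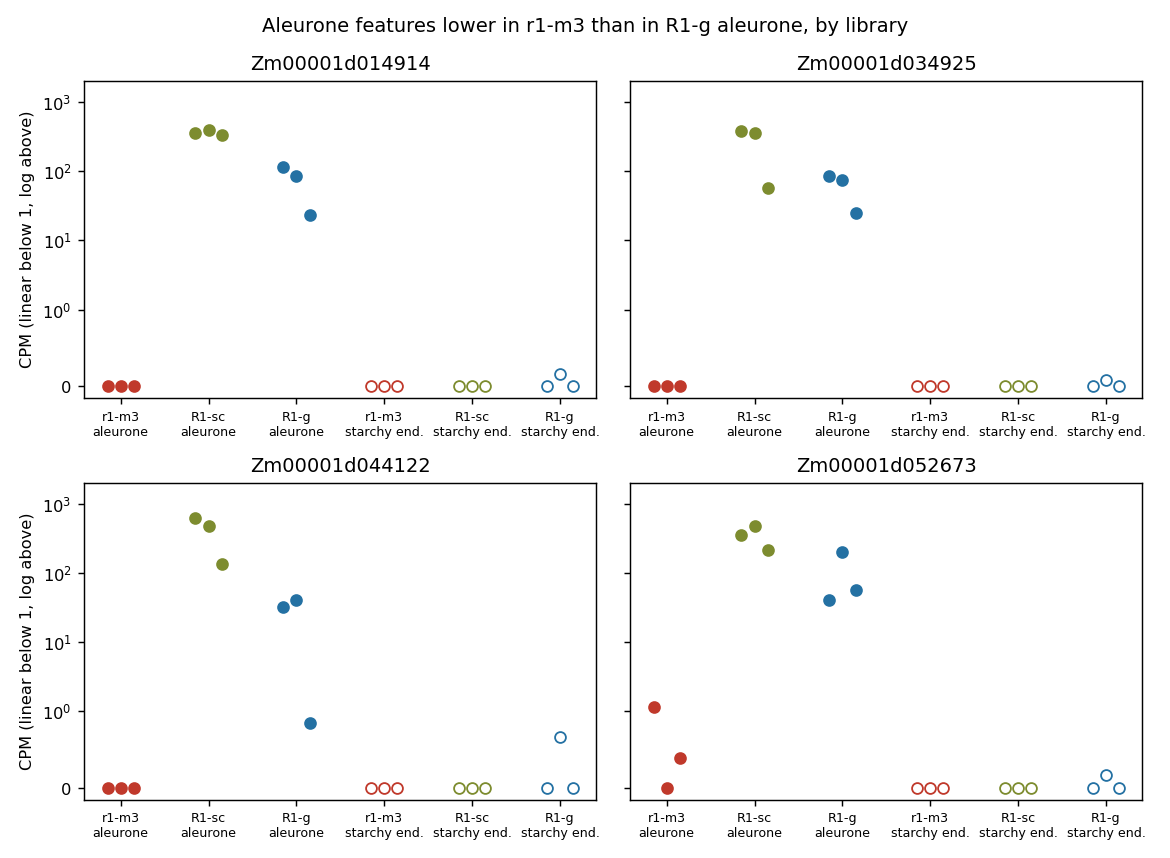
Level of 4 features in CPM (vertical axis, linear below 1 and logarithmic above) in each library of the 6 groups of genotype and compartment (horizontal axis, filled points for aleurone and open points for starchy endosperm). The r1-m3 aleurone libraries lie at 0 to 1.15 CPM, those of R1-sc at 57.5 CPM or above and those of R1-g at 0.842 to 199 CPM, and the starchy endosperm libraries lie below 1 CPM.

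The other 6 lower features were also expressed in starchy endosperm. Zm00001d039047 was at 3.53, 6.15 and 2.95 CPM in r1-m3 aleurone, against 168, 131 and 74.7 CPM in R1-g aleurone. The groups lay far apart, with 53.1, 40.8 and 44.6 CPM in R1-sc aleurone between them. Its mean was 4.84 ± 1.85 CPM in r1-m3 (SD, n = 2) and 125 ± 47.2 CPM in R1-g (SD, n = 3). The log2 fold change with r1-m3 replicate 3 was -4.89 ± 0.84 (SE, edgeR adjusted p = 0.00411), and without it -4.68 ± 1.08 (edgeR adjusted p = 0.0747). Its difference in aleurone differed from that in starchy endosperm, where the log2 fold change was 0.59 (interaction, edgeR adjusted p = 0.026; 0.186 without r1-m3 replicate 3).

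Zm00001d026635 was at 0, 0 and 0 CPM in r1-m3 aleurone, against 5.65, 4.55 and 0 CPM in R1-g aleurone. The groups therefore overlapped at 0, and the feature was still called with r1-m3 replicate 3 (edgeR adjusted p = 0.00209) and without it (0.0232). Its levels in starchy endosperm were higher in every library, between 155 and 300 CPM. R1-sc aleurone held 0, 0 and 0.0484 CPM, so in aleurone only R1-g replicates 1 and 2 held more than a trace.

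The most abundant lower feature was Zm00001d035760, at 4706, 3673 and 3890.1 CPM in r1-m3 aleurone, against 9076, 7827 and 10626 CPM in R1-g aleurone. R1-sc aleurone held 4894, 5334 and 5380.4 CPM, between both but nearer to r1-m3, and the 9 starchy endosperm libraries held 51579 to 116630.0 CPM. Its mean was 2.19-fold higher in R1-g than in r1-m3. The log2 fold change with r1-m3 replicate 3 was -1.17 ± 0.26 (SE, edgeR adjusted p = 0.0448), and without it -1.13 ± 0.30 (edgeR adjusted p = 0.206). Without r1-m3 replicate 3 the feature also missed the threshold in DESeq2 (adjusted p = 0.237). The edgeR call was lost as well without r1-m3 replicate 1 (adjusted p = 0.0711) or 2 (0.193) and without R1-g replicate 1 (0.0615) or 3 (0.16). Of the 10 lower features 6 lost the call without r1-m3 replicate 3, at adjusted p between 0.0604 and 0.233, and the 4 that were called in both were Zm00001d014914, Zm00001d034925, Zm00001d052673 and Zm00001d026635.

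The 46 features higher in r1-m3 aleurone were all expressed in starchy endosperm, most of them at a higher level than in aleurone. All 46 had counts in each of the 9 starchy endosperm libraries, as did 42.7% of the features tested, and all 46 averaged at least 10 CPM there, as did 34.8%. The filter on low counts and the spread were estimated over both compartments, so starchy endosperm counts bear on which features can be called, and the part of this in the shares was not tested. With the 9 aleurone libraries alone in the fit, 41 of the 46 were tested and 2 were called. Their starchy endosperm means ran from 19.8 to 79761 CPM with a median of 138 CPM. In aleurone their means were mostly low, with a median of 11.2 CPM in r1-m3 and of 0.0406 CPM in R1-g. The r1-m3 aleurone mean lay below the r1-m3 starchy endosperm mean in 43 of the 46, against 40.7% of the features tested. The R1-g aleurone mean lay below that of R1-g starchy endosperm in all 46.

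Most of the 46 were near the limit of detection in R1-g. All 3 R1-g aleurone libraries had at most 1 CPM for 35 of them, and 17 had no count at all in any. Within r1-m3, replicates 1 and 2 differed by more than 3-fold in 29 of the 46, and 1 of them was at or under 1 CPM in 13. Replicate 3 lay between replicates 1 and 2 in 44. Without replicate 3, 12 of the 46 lost the call, at adjusted p between 0.0555 and 0.132 in edgeR.

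The largest change was in Zm00001d032508, at 64.9, 16.0 and 38.0 CPM in r1-m3 aleurone, against 0, 0 and 0 CPM in R1-g aleurone. All r1-m3 libraries lay above the R1-g ones, and replicates 1 and 2 differed by about 4-fold. The level was at least 845-fold higher in r1-m3, counting 3 reads over the R1-g group as the floor (edgeR adjusted p = 0.00505; 0.0101 without r1-m3 replicate 3). R1-sc aleurone held 0, 0 and 0.726 CPM. In starchy endosperm the feature had 5.86 to 97.3 CPM over the 9 libraries, so r1-m3 aleurone lay within that range.

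Zm00001d001953 was at 34.7, 8.01 and 17.8 CPM in r1-m3 aleurone, against 0, 0 and 0 CPM in R1-g aleurone. It was at least 446-fold higher in r1-m3 (edgeR adjusted p = 1.79e-05; 1.89e-05 without r1-m3 replicate 3). Unlike Zm00001d032508 it was also present in R1-sc aleurone, at 34.7, 5.47 and 5.18 CPM, which overlapped the r1-m3 libraries. Zm00001d045391 had the smallest adjusted p of those named, at a low level. It was at 1.77, 2.61 and 2.49 CPM in r1-m3 aleurone, against 0, 0 and 0 CPM in R1-g aleurone, at least 45.7-fold higher (edgeR adjusted p = 3.65e-06; 6.36e-06 without r1-m3 replicate 3). It was at 0 in all R1-sc aleurone libraries and at 287 to 679 CPM in starchy endosperm.

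The 3 most abundant starchy endosperm features among the 46 were present in aleurone of every genotype. Zm00001d005793 was at 1625, 1036 and 1209 CPM in r1-m3 aleurone, against 292, 370.1 and 420.4 CPM in R1-g aleurone. The groups did not overlap, and the mean was 3.69-fold higher in r1-m3, with a log2 fold change of 1.84 ± 0.27 (SE; edgeR adjusted p = 0.000653; 0.00143 without r1-m3 replicate 3). Aleurone of R1-sc held 1641, 1982 and 2704 CPM, all above the r1-m3 libraries, and starchy endosperm held 46656 to 102640.0 CPM.

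Zm00001d020591 was at 1135, 1266 and 1114 CPM in r1-m3 aleurone, against 386, 376 and 222 CPM in R1-g aleurone. The r1-m3 libraries were close to each other and above all R1-g libraries, 3.66-fold higher in the mean (log2 fold change 1.84 ± 0.30, SE; edgeR adjusted p = 0.0018). R1-sc aleurone was higher still, at 2626, 1366 and 3284 CPM. Zm00001d044129 was at 308, 106 and 188 CPM in r1-m3 aleurone, against 36.3, 27.3 and 15.8 CPM in R1-g aleurone, and at 56.4, 35.2 and 53.8 CPM in R1-sc aleurone. Here r1-m3 lay above both R1 alleles in every library, with a log2 fold change of 2.92 ± 0.36 against R1-g (SE; edgeR adjusted p = 4.83e-05). Both calls were also made without r1-m3 replicate 3, at adjusted p of 0.00317 and 9.76e-05. The 2 called with the 9 aleurone libraries alone were Zm00001d005793 (edgeR adjusted p = 0.028) and Zm00001d039933 (adjusted p = 0.0343), and the other higher features named here had adjusted p of 0.0627 to 0.435.

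Many of these features were also higher in R1-sc than in R1-g aleurone. The R1-sc mean lay above that of R1-g in 37 of the 46, against 47.1% of the features tested, all 3 of its libraries lay above all of R1-g in 26, and it exceeded the r1-m3 mean in 19. R1-sc had no counts in any aleurone library for 8, and its median over the 46 was 6.98 CPM. For the counts of 26, 19 and 8 no share over all features tested is given, so no base rate stands beside them. The features were chosen by a contrast that uses the R1-g libraries, so a high R1-sc level relative to R1-g is not independent of that choice.

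**Figure D3:**
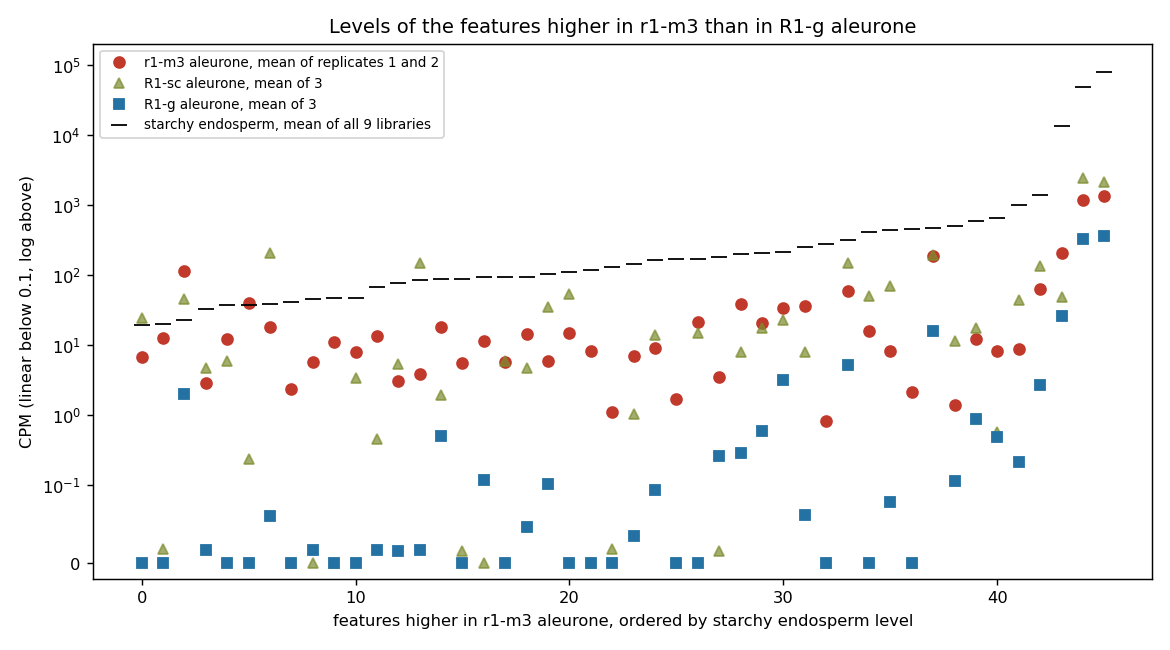
Mean level in CPM (vertical axis, linear below 0.1 and logarithmic above) of the 46 features higher in r1-m3 than in R1-g aleurone, ordered along the horizontal axis by their mean over the 9 starchy endosperm libraries (dashes), with r1-m3 aleurone (circles, mean of replicates 1 and 2), R1-sc aleurone (triangles) and R1-g aleurone (squares, means of 3). The r1-m3 aleurone mean lies below the starchy endosperm mean of its own genotype in 43 of the 46, and many R1-g means lie at or near 0.

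Features of the starchy endosperm were also followed as a list chosen without either genotype of the comparison. It held 135 features with a mean of at least 100 CPM in R1-sc starchy endosperm and at most 1 part in 20 of that in R1-sc aleurone. Of these, 17 were called higher in r1-m3 (12.6%), beside 0.255% over all features tested. Called lower were 2 (1.48%), Zm00001d026635 and Zm00001d008756, beside 0.0555%. The median log2 fold change of the 135 was 0.50 (0.56 without r1-m3 replicate 3), beside 0.0 over all features tested. The median level, as a percentage of the feature's R1-sc starchy endosperm mean, was 2.20%, 1.99% and 2.38% in r1-m3 aleurone, against 0.355%, 0.729% and 0.392% in R1-g aleurone. Every r1-m3 library lay above every R1-g library, although replicate 3 of r1-m3, like a mixture of replicates 1 and 2, adds no independent value. R1-sc aleurone was at 0.844%, 0.392% and 0.780%, but these libraries were used to choose the list for a low aleurone level, so they are no comparison for either genotype. Of the 135, 28, 29 and 19 had no counts in the r1-m3 libraries, against 53, 39 and 42 in those of R1-g.

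The sum over the list, which its most abundant features dominate, was less separated. It came to 2.09%, 2.09% and 1.96% of the R1-sc starchy endosperm sum in r1-m3 aleurone, against 1.25%, 1.74% and 1.88% in R1-g aleurone. With a ratio of 1 in 10 the list held 192 features, of which 21 were called higher and 4 lower, and its median levels were 3.62% to 4.01% in r1-m3 and 1.12% to 1.94% in R1-g aleurone. With a minimum of 500 CPM it held 39 features, of which 6 were called higher, with median levels of 2.10% to 2.31% in r1-m3 and 1.09% to 1.17% in R1-g aleurone. For these lists too, the shares over all features tested were 0.255% called higher and 0.0555% lower. Without r1-m3 replicate 3, 12 of the 135 were called higher, beside 0.178% over all features tested. With the 9 aleurone libraries alone in the fit, 1 was called higher, where 0.0504% of all features were called in either direction.

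More features of any kind were detected in r1-m3 aleurone. Those with at least 1 count numbered 16993, 16789 and 19108 in the r1-m3 libraries, against 13942, 15329 and 14132 in those of R1-g, with no overlap. On the list of 1324 aleurone features, 102, 102 and 25 had no counts in the r1-m3 libraries, against 238, 153 and 212 in those of R1-g. The summed level of that list was 55.1%, 64.6% and 56.5% of its R1-sc aleurone sum in r1-m3, against 61.4%, 61.6% and 69.5% in R1-g, which overlapped. Replicate 3 of r1-m3 had the largest feature total of the 6 libraries, 20.4 M, and resembles a mixture of replicates 1 and 2. Its values of 19108 and 25 are therefore not independent of theirs. Feature totals were 14.9 and 15.2 M in replicates 1 and 2 of r1-m3, and 14.6, 14.3 and 17.7 M in R1-g. The number of detected features moved with the higher features and with the starchy endosperm list, and its part in those results was not tested.

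**Figure D4:**
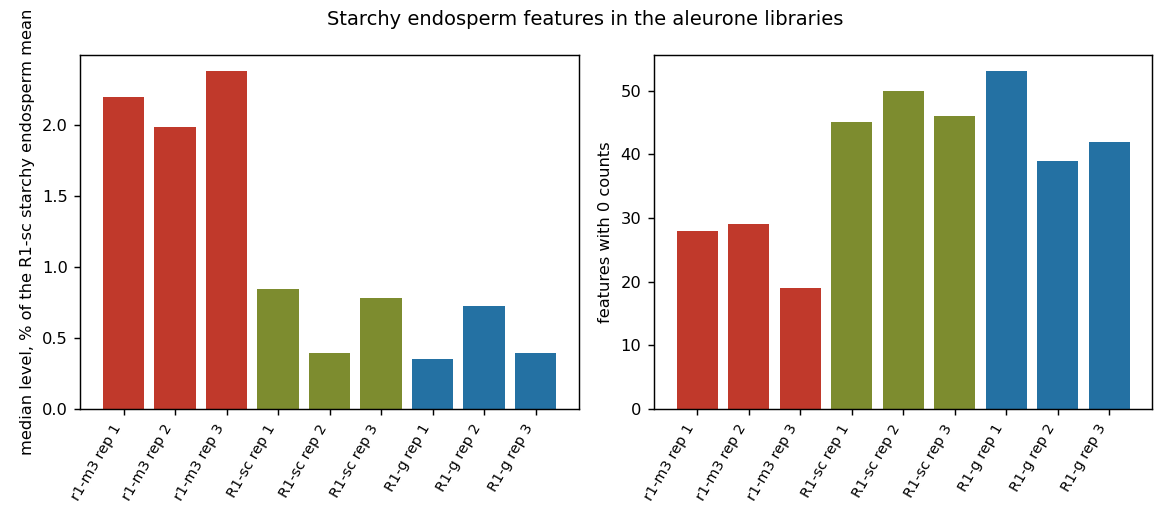
The 135 starchy endosperm features in each aleurone library (horizontal axis, 3 replicates of r1-m3, R1-sc and R1-g): median level as a percentage of the R1-sc starchy endosperm mean (left) and number of features with 0 counts (right). The r1-m3 libraries have medians of 1.99% to 2.38% and 19 to 29 features at 0, and the R1-g libraries have medians of 0.355% to 0.729% and 39 to 53 features at 0.

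The same contrast, r1-m3 minus R1-g, was also read in starchy endosperm. None of the 56 was called there by edgeR, where 4 of 18028 features tested were (0.0222%), so 0 calls in 56 is near that share. Of the 56, 1 (Zm00001d044122, on 8 counts over 9 libraries) had an unadjusted edgeR p under 0.05 there. Over all features tested 1312 did. The 46 higher features had a median log2 fold change of 0.12 in starchy endosperm, and no change of more than 1.69 in size. The difference between compartments was itself tested: 24 features were called for an interaction of genotype and compartment (0.133%), 20 with a more positive difference in aleurone (0.111%) and 4 with a more negative one (0.0222%). Of these, 15 were among the 46 higher and 3 among the 10 lower features. The interaction contains the aleurone difference by which the 56 were chosen, so this overlap is not independent of that choice. Without r1-m3 replicate 3, 15 interactions were called. The interaction of the 4 aleurone features could not be measured, since starchy endosperm held only 1 to 8 counts of each over all 9 libraries.

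Organelle genes, which make up a large part of these libraries, gave no call between the genotypes. Over all 18028 features tested 0.311% were called, so 0 calls here or in any organelle or ENSRNA list below is near that share. The unadjusted p in edgeR was under 0.05 for 2372 of the 18028. Of 176 organelle features tested, 131 mitochondrial and 45 plastid, edgeR called 0, with 7 at an unadjusted p under 0.05 (4 higher and 3 lower). Their median log2 fold change was -0.25. None was called without r1-m3 replicate 3 either, and the organelle and ENSRNA features named below then had adjusted p of 0.585 or above. DESeq2 called 3 of the 176, rps4 and orf186 lower and orf99-b1 higher, beside 6.13% called by DESeq2 over all features tested. The mitochondrial genome gave 20.7%, 26.3% and 24.0% of feature counts in r1-m3 aleurone, against 20.2%, 26.6% and 25.6% in R1-g aleurone (exact permutation test over libraries, two-sided, p = 0.9, where 0.1 is the smallest that 3 against 3 can give). The plastid genome gave 0.179%, 0.135% and 0.161% in r1-m3, against 0.138%, 0.0977% and 0.0924% in R1-g (exact permutation p = 0.2). Of 6 classes of features compared this way, each had an adjusted p of 1.0. These tests counted r1-m3 replicate 3 as a full library, although it resembles a mixture of its partners. The limit of 0.1 assumes that it is independent, and no p without it is given here. The tests also ignored the replicate numbers, with which the mitochondrial share went in part. They therefore cannot show that the shares are equal.

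No respiratory chain gene of the mitochondrion passed the test, and at 0.311% called over all features tested few or none would in lists this short. None of 6 NADH dehydrogenase (complex I) genes, 8 genes of cytochrome b, cytochrome oxidase and cytochrome c maturation, and 6 ATP synthase genes was called, and the list medians were log2 fold changes of -0.25, -0.18 and -0.22. With library totals in place of TMM they were -0.07, -0.00021 and -0.02. Of the complex I genes, nad4 was at 144, 214 and 175 CPM in r1-m3, against 183, 176 and 279 CPM in R1-g. The cytochrome oxidase subunit gene cox1 was at 737, 932 and 776 CPM in r1-m3, against 865, 789 and 823 CPM in R1-g, and these libraries also overlapped. The gene cox3, for another subunit, was at 515, 539 and 514 CPM in r1-m3, against 592, 595 and 593 CPM in R1-g, without overlap but with an edgeR adjusted p of 0.932. The ATP synthase gene atp4 was likewise lower without overlap, at 1368, 1354 and 1286 CPM in r1-m3, against 1644, 1498 and 1489 CPM in R1-g (edgeR adjusted p = 0.897).

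The mitochondrial ribosomal protein genes had the lowest median of the mitochondrial lists, -0.71 over 9 genes, of which 8 were negative and none was called. Among them rps1, for a protein of the small subunit, was at 1151, 1437 and 1256 CPM in r1-m3, against 2102, 2094 and 2097 CPM in R1-g. The R1-g libraries were nearly equal and all above r1-m3, and the log2 fold change was -0.71 ± 0.30 (SE; edgeR adjusted p = 0.309). The gene rps12 was at 270, 278 and 245 CPM in r1-m3, against 447, 401 and 306 CPM in R1-g (edgeR adjusted p = 0.695). The gene rps7, second to rps1 in level, overlapped between the groups, at 761, 679 and 678 CPM in r1-m3 and 1157, 892 and 494 CPM in R1-g. The large ribosomal RNA rrn26 was the most abundant organelle feature, at 96670, 145010 and 115190 CPM in r1-m3, against 100150, 151950 and 164860 CPM in R1-g, again overlapping.

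Mitochondrial open reading frames of no stated function were the most variable, with log2 fold changes from -4.82 to 7.35 over 80 tested of 128. Their median was -0.09, -0.20 without r1-m3 replicate 3 and 0.08 without TMM scaling, and none was called. The smallest p among them belonged to orf107-c, at 1.97, 34.8 and 15.4 CPM in r1-m3, against 396, 29.0 and 14.0 CPM in R1-g, where R1-g replicate 1 stood far above the rest (edgeR adjusted p = 0.281).

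Plastid transcripts were scarce, and 5 of 33 listed genes of the photosystems, cytochrome b6f complex and ATP synthase, 7 of 12 of the NDH complex, 17 of 25 ribosomal protein genes and 6 of 11 others passed the filter on low counts. Their median log2 fold changes were -0.91, -0.30, -0.26 and -0.46, with none called. The most abundant was matK, which encodes the plastid maturase of intron splicing, at 908, 755 and 812 CPM in r1-m3, against 665, 491 and 532 CPM in R1-g. All r1-m3 libraries lay above R1-g, and the difference missed the threshold (log2 fold change 0.55 ± 0.47, SE; adjusted p in edgeR 0.742). The NDH gene ndhD was at 3.70, 3.86 and 3.92 CPM in r1-m3, against 17.5, 7.76 and 20.5 CPM in R1-g (edgeR adjusted p = 0.541), and ndhA overlapped between the groups.

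**Figure D5:**
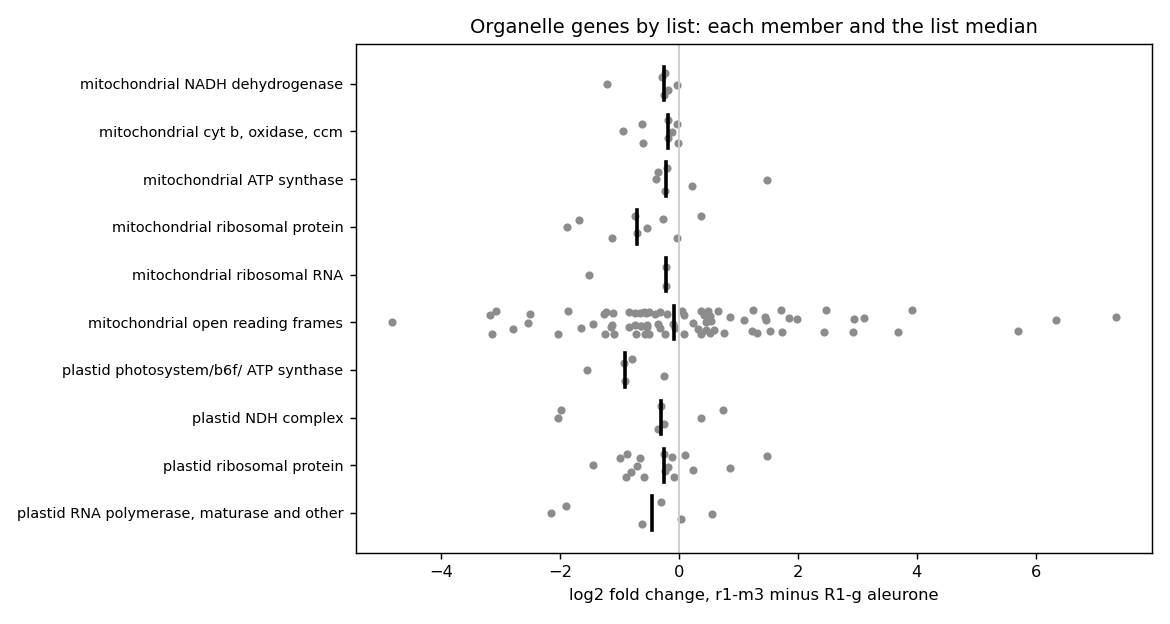
Log2 fold change between r1-m3 and R1-g aleurone (horizontal axis, positive where r1-m3 is higher) of each tested organelle gene that belongs to a list (points), by functional list (rows), with the list median (black bar). Tested organelle features outside the lists are not drawn. No point is called, and the medians lie between -0.91 and -0.09.

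Noncoding ENSRNA features, 176 tested of 1765 listed, gave 0 calls in edgeR, beside 0.311% over all features tested. Of them 11 had an unadjusted edgeR p under 0.05 (7 higher, 4 lower), beside 2372 of all 18028. DESeq2 also called 0 of the ENSRNA features, beside 6.13% over all. Their median was -0.23, and -0.01 without TMM scaling. The smallest p was that of ENSRNA049478530, at 676, 389 and 571 CPM in r1-m3, against 1348, 1058 and 5647 CPM in R1-g (log2 fold change -2.30 ± 0.74, SE; edgeR adjusted p = 0.253). MicroRNA precursors, 154 listed, had no count in any of the 6 libraries.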

How the data were processed

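Counts were taken from 18 laser-captured maize endosperm libraries, 3 of each genotype and compartment. The deposited tables hold raw read counts per feature, whole numbers that the authors did not normalize. The submitters' processing notes name the build B73 RefGen_v4 and, as tools of the authors, HTSeq 0.11.2, Trimmomatic 0.39, DESeq2, HISAT2, SAMtools and FastQC. The strand setting and other parameters are not given in the sources used here, so reads of features that overlap or run antisense cannot be separated, and near-identical gene copies are uncertain because multiply aligned reads were not counted. Reads given to no feature (8.83% to 11.1% outside features and the multiply aligned ones) stayed out of library sizes and tests.

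Libraries were grouped by genotype and compartment in their labels. edgeR 4.0.16 in R 4.3.3 fitted 6 group means to all 18 libraries after filterByExpr, with TMM factors and robust quasi-likelihood F tests, Benjamini-Hochberg adjusted over all features tested within each contrast. The shared fit estimates the spread over both compartments. The SE of a log2 fold change is its size over the square root of F. Correlations added a prior count of 2 to log2 CPM. Folds relative to a group at 0 are bounds from 3 counts over that group. The script was tested on simulated counts. Alternatives were DESeq2 1.42.0, its size factors in edgeR, no TMM, no filter or another one, fewer libraries, each library left out, and the replicate number as a block.

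The compared libraries, the lists and the tests were chosen with earlier results of these data known. The lists drawn from R1-sc libraries, their cutoffs and the alternatives run on them were added after seeing the data. Named genes were, per direction, up to 12 with a name and the 2 without one with the largest change, called, not overlapping and at 10 CPM or more, and of each list the 3 most abundant and the 1 with the smallest p, of which the text gives most. A RefSeq table of another assembly, NAM-5.0, gives names to 518 features, all organelle genes or microRNA precursors. Planned lists of nuclear genes and cell type markers therefore had 0 matches and were void. Plastid-derived copies in the mitochondrial genome were left out of the lists.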

Additional observations from a re-analysis of the deposited data

Results flagged for a closer look

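The genotype difference was not the same in both compartments for 24 features by edgeR's interaction test of r1-m3 minus R1-g in aleurone against the same in starchy endosperm. Of the features named above, 7 were among them. The 7 were called for their aleurone difference, which is part of the interaction, so their interaction is not independent of that call. In aleurone Zm00001d045391 (interaction log2 value 7.94, adjusted p = 6.42e-05), Zm00001d001953 (11.09, adjusted p = 0.000209), Zm00001d005793 (2.23, adjusted p = 0.00585), Zm00001d044129 (2.80, adjusted p = 0.00714) and Zm00001d032508 (12.86, adjusted p = 0.0238) had the more positive difference. Zm00001d039047 (-5.47, adjusted p = 0.026) and Zm00001d026635 (-8.50, adjusted p = 0.026) had the more negative one. Without r1-m3 replicate 3 the interaction was no longer called for Zm00001d039047 (adjusted p = 0.186) and Zm00001d026635 (0.131), and the other 5 had adjusted p of 0.000167 to 0.0412. In starchy endosperm the log2 fold changes of the 7, in the order named, were 0.32, 0.30, -0.39, 0.12, -0.49, 0.59 and -0.34. The values of Zm00001d045391, Zm00001d001953, Zm00001d032508 and Zm00001d026635 are fitted against a group at 0 and depend on the prior count.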

How the results depend on the processing

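The 56 calls between r1-m3 and R1-g aleurone became 1105 in DESeq2 and 624 in DESeq2 without r1-m3 replicate 3, 245 without a filter on low counts, 8 with the 9 aleurone libraries, 0 with the 6 libraries of the comparison and 0 with these less r1-m3 replicate 3 (833 at an unadjusted p under 0.05). Leaving out 1 library gave 38 (without r1-m3 replicate 3) to 67 (without R1-g replicate 2). Size factors, library totals, 50 features fewer and another filter kept the count within 1.5 times. Across features, replicate numbers did not pair the r1-m3 and R1-g aleurone libraries (correlations of deviations 0.0082, -0.0020 and -0.0194). The mitochondrial share of counts did go with the number in replicates 1 and 2. It was 20.7% and 26.3% in r1-m3, 20.2% and 26.6% in R1-g, and 20.4% and 27.5% in R1-sc aleurone. In replicate 3 it was 24.0%, 25.6% and 19.4%. The fit with the replicate block made 41 calls, or 28 with the replicate block and without r1-m3 replicate 3. The 38 calls without r1-m3 replicate 3 became 121 with no filter. The 24 interactions became 937 in DESeq2 and 208 without a filter, and 15 to 25 with 1 library left out. The starchy endosperm calls became 605 in DESeq2 and 95 without a filter.

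Of 277 alternative values of the 15 features named by rule or by choice, 217 kept direction and side of the threshold, 60 kept direction and lost the call, and 0 turned. Differences in shares of counts (percentage points, r1-m3 minus R1-g) kept their sign for plastid alone: with 1 library left out they ran from -2.34 to 1.24 for mitochondrial ribosomal RNA, -2.43 to 1.01 for all mitochondrial features, 0.0388 to 0.0634 for plastid, -1.74 to 1.99 for ENSRNA, -2.30 to 4.11 for nuclear gene models and -4.69 to 0.889 for the 20 most abundant features. As shares of the table total, 4 changed sign, to 0.179 for mitochondrial ribosomal RNA, 0.116 for mitochondrial, 0.167 for nuclear and 0.0499 for the 20 most abundant features. List medians moved by less than their spread in 127 of 132 alternatives. The cause of these changes was not tested.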
